A study of Homo sapiens with 2 samples.

Results

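The genes of the nuclear pore complex were described across 2 arrays of immunoprecipitated RNA from 293T cells, a line derived from human embryonic kidney that carries the SV40 large T antigen. The 31 members are a named list of nucleoporins, matched by platform annotation symbol or Entrez identifier to probe sets with exactly 1 gene symbol. All 31 had at least 1 such probe set and all 31 were detected, out of 13150 detected genes and 19775 genes named on the arrays. The brightest probe set of a gene, by its mean over the arrays, stands for the gene. A probe set was detected if that mean exceeded 0.92 (log2), the median of such means once control probe sets are set aside.

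The miR-941 array held RNA recovered with an antibody against Ago2, an Argonaute protein that carries microRNAs, from 293T cells transfected with Synthetic miR-941. The control array held RNA from 293T cells given a scrambled oligo, called mock transfection in another label. Each oligonucleotide was used at 30 nmol/l. The control sample's title calls it an Ago2 precipitate, but its antibody entry gives nonimmune IgG beads, and if that entry is right, effects of oligonucleotide and antibody cannot be told apart. Each group is 1 array, so no difference below has a replicate error or a p-value, and each compares these 2 arrays only. Neither array held input RNA, so recovery in the precipitate and the amount of mRNA in the cells cannot be told apart, and neither can fewer cells and less RNA per cell.

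Nuclear pores are the passages through the nuclear envelope for proteins and RNA. An outer and an inner ring form the scaffold, a ring of membrane proteins anchors it, and flexible nucleoporins rich in phenylalanine and glycine fill the channel. Filaments reach into the cytoplasm and a basket into the nucleus, where mRNA leaves and import cargo arrives. MicroRNAs bound to Argonaute recognise mRNAs mostly through their seed, bases 2 to 8. The transfected microRNA is shown because its seed sets which sites it could pair with. The RefSeq table of GRCh38.p14 lists the same mature sequence for 5 MIR941 genes on chromosome 20, the first of them, MIR941-1, on the plus strand at chr20:63919495-63919517. The seed is in capitals, 5′ to 3′.

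hsa-miR-941: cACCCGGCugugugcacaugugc

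A perfect match to this seed reads GCCGGGU in an mRNA. Transcript sequences of the members were not analysed here, so no member was classed by seed match.

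The arrays correlated at r = 0.992 over all 54675 probe sets, across probe sets and not replicates, and their medians were 0.92 (control) and 0.98 (miR-941). Of the genes listed for the parent line of 293T, 7 of 10 were detected, while KRT8, LHX1 and SOX11 were not. Brightest were VIM (8.82 with scrambled oligo and 8.70 with miR-941), NEFL (6.99 and 7.37), KRT18 (6.14 and 6.38) and STMN1 (5.71 and 6.15). INA (3.72 and 3.13) and NEFM (3.45 and 3.19) were dimmer, and lower on the miR-941 array, where NEFL was higher. PAX2 (0.86 and 1.23) lay below the detection level on the control array. Of 13 genes on the arrays that mark other cell types, 5 were detected. HBB, which encodes beta globin, was bright, at 6.95 with scrambled oligo and 7.54 with miR-941, a difference of 0.59 on an _x_at probe set, one whose probes can match unrelated transcripts. Of its 4 detected probe sets 3 were higher and 1 lower. COL1A1 (2.72 and 2.48), KRT5 (1.45 and 1.08), GFAP (0.89 and 1.36) and PECAM1 (0.93 and 1.37) were dim. PTPRC, CD3E, ALB and NPHS1, which mark leukocytes, T cells, hepatocytes and podocytes, were not detected. The 5′ control of the actin mRNA differed by -0.66 between the arrays, its middle control by -0.37 and its 3′ control by -0.04. For GAPDH the 5′, middle and 3′ controls differed by -0.19, -0.07 and 0.05. The part of these controls and of HBB in the differences below was not tested.

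Most nuclear pore genes read nearly alike on both arrays. Of the 31 members, 20 were higher on the miR-941 array, 10 were lower and NUP210 was equal. Among all detected genes 46.3% were higher and 42.4% lower. The median log2 difference, miR-941 minus control, was 0.08 over the members and 0.00 over all detected genes. AAAS was the only member past 2-fold, and it was higher, where 0.228% of all detected genes were 2-fold or more higher and 0.289% were 2-fold or more lower. AAAS was also the only member past 1.5-fold, against 2.94% of all detected genes higher and 2.87% lower by that size. The other 30 members lay between -0.40 and 0.53.

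**Figure D1:**
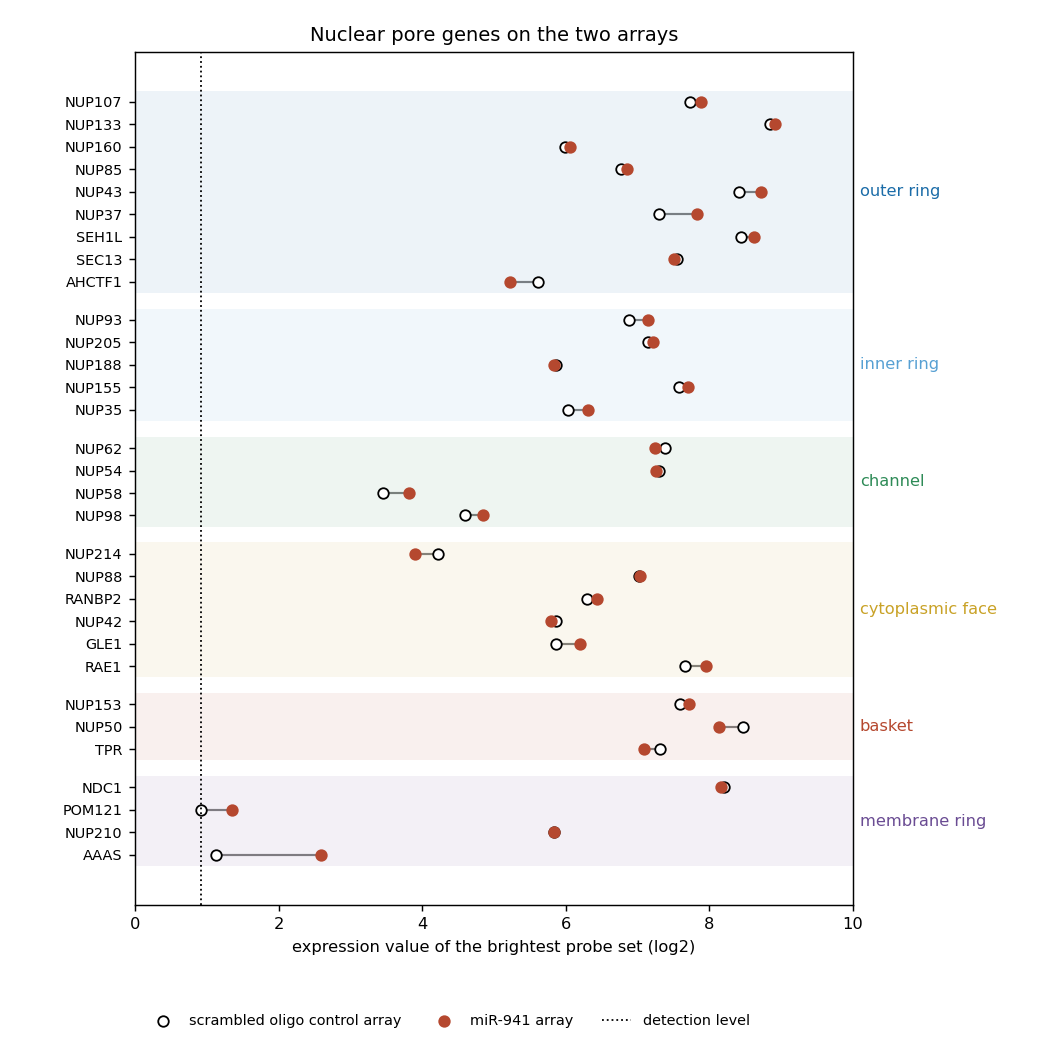
Expression value (log2) of the brightest probe set of each of the 31 nuclear pore genes on the scrambled oligo control array (open circles) and on the miR-941 array (filled circles), 1 array each, with the detection level dotted and no error bars because there are no replicates. The circles of most genes nearly touch. AAAS is the widest gap, from 1.12 to 2.59, and its control value lies near the detection level, as do both values of POM121.

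The members were mostly bright, and bright probe sets differ less between the arrays than dim ones. Above the 75th percentile of level, 3.37 on the log2 scale, lay 29 members, all except AAAS and POM121. Of these 29, 18 were higher, 10 lower and 1 equal, and their differences had an SD of 0.22 over genes. Of the 8086 detected genes above that level, 47.8% were higher and 46.2% lower, with an SD of 0.26. The spread of the bright members was therefore close to that of other bright genes. The excess of higher over lower members was smaller when each gene was given the median of its detected probe sets, with 17 higher.

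**Figure D2:**
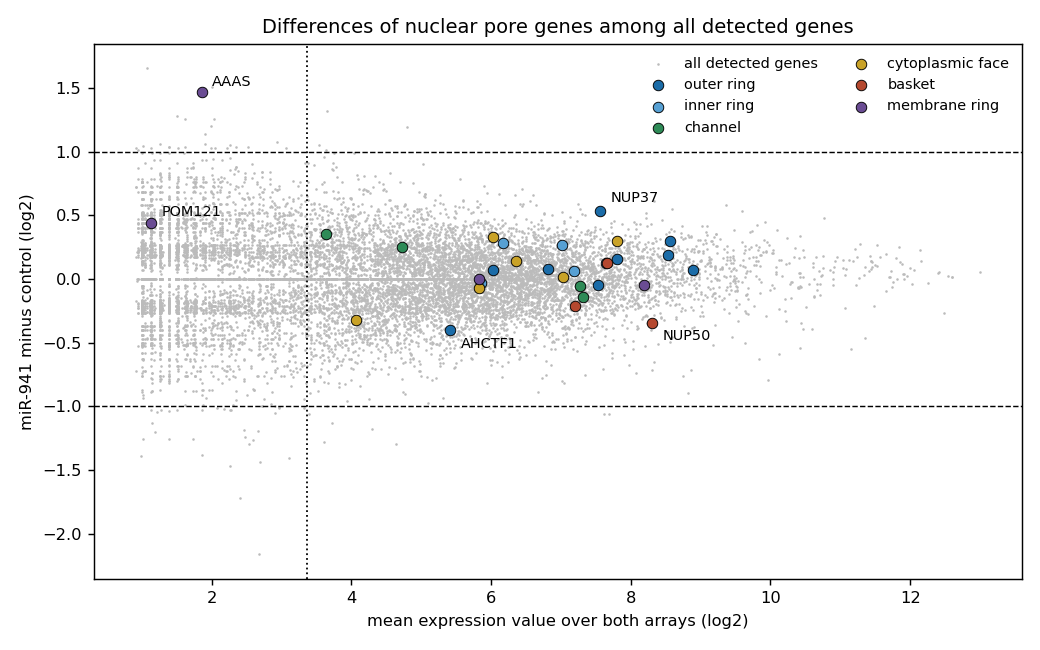
Log2 difference (miR-941 array minus control array) against the mean level of the brightest probe set, for all 13150 detected genes (grey) and the 31 nuclear pore genes (coloured by part of the pore). Dashed lines mark 2-fold and the dotted line the 75th percentile of level. AAAS stands at 1.47 among dim genes, and the 29 bright members lie between -0.40 and 0.53.

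Probe sets of the same gene gave the only measure of technical spread. They share 1 hybridisation per array and can report different transcript forms, so they are not replicates. The members had 77 probe sets with 1 symbol, of which 65 were detected: 32 higher, 25 lower and 8 equal. The pooled SD of differences within a gene was 0.25 over the 21 members with 2 or more detected probe sets, and 0.31 over 6106 such genes in all. The 0.25 pools bright and dim probe sets, so it may be too wide for bright ones. On the brightest probe set, 18 of the 31 members differed by less than that 0.25, 10 were higher by at least as much and 3 were lower by at least as much. Among all detected genes 18.7% were higher by at least that size and 17.1% lower. AAAS and POM121, both dim, are among the 10. Without them 8 of the 29 bright members were higher and 3 lower, where 14.5% and 15.4% of the detected genes above the 75th percentile were. Of the 21, 4 were higher on every detected probe set (NUP133, NUP37, NUP205 and RAE1) and 4 were lower on every one (AHCTF1, NUP62, NUP50 and TPR). Over all genes with 2 or more, 16.5% were higher on every one and 17.1% lower. In 9 of the 21 members at least 1 probe set was higher and at least 1 lower, as in 46.4% of those 6106 genes.

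**Figure D3:**
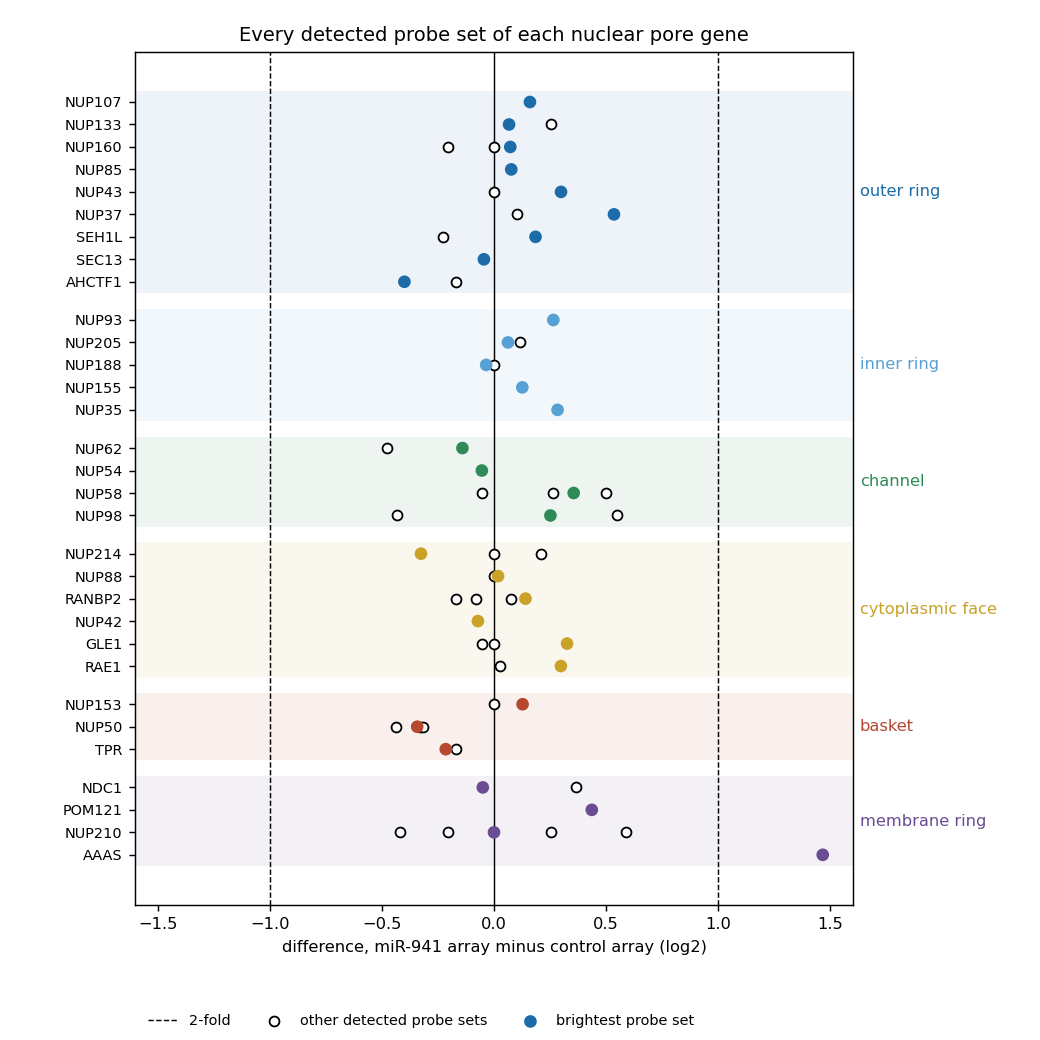
Log2 difference (miR-941 array minus control array) of each of the 65 detected probe sets, by gene and part of the pore, with the brightest probe set of a gene filled and the others open. Dashed lines mark 2-fold. The 4 probe sets of NUP50 lie close together below 0, while those of NUP98 and NUP210 spread to both sides of 0.

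The outer ring, or Y complex, was higher on the miR-941 array for 7 of its 9 genes, with a median log2 difference of 0.08. The core proteins of the Y read nearly alike on both arrays. NUP107 read 7.73 with scrambled oligo and 7.89 with miR-941, a difference of 0.16 on its 1 probe set. NUP133 had 8.85 and 8.92 (0.07), with its dim probe set at 0.26. NUP160 had 5.98 and 6.06 (0.07), but its other detected probe sets had -0.20 and 0.00. NUP85 had 6.77 and 6.85 (0.08). On the brightest probe set, none of these 4 differed by as much as the spread within a gene.

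The smaller proteins of the Y complex ran from -0.05 to 0.53. NUP37, a beta-propeller protein bound to NUP160, had the largest positive difference among the bright members: 7.29 with scrambled oligo and 7.83 with miR-941, a difference of 0.53. Its second probe set, at 3.53 and 3.64, was higher by only 0.10, so the size of the difference rested on the brighter probe set. NUP43 had 8.42 and 8.71 (0.30), and its second probe set, at 1.49 on both arrays, is too dim to show a lack of difference. SEH1L, which also serves a complex that controls mTOR, had 8.44 and 8.62 (0.19), with its second, dimmer probe set at -0.23. SEC13, shared with the COPII coat of vesicles that leave the endoplasmic reticulum, had 7.55 and 7.50 (-0.05).

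AHCTF1, also called ELYS, which brings the Y complex to chromatin after mitosis, was the lowest member on brightest probe sets. Its brightest probe set read 5.62 with scrambled oligo and 5.22 with miR-941, a difference of -0.40, and its other probe set 4.74 and 4.57, a difference of -0.17. Both probe sets lay below 0, whereas both of NUP37 lay above it. With the median over detected probe sets AHCTF1 had -0.29, while NUP50 (-0.34) and NUP62 (-0.31) were lower, so AHCTF1 was lowest only by its brightest probe set.

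The inner ring, the scaffold that lines the channel, had a median of 0.13, with 4 of 5 genes higher. NUP35, which binds the membrane at the pore, read 6.03 with scrambled oligo and 6.32 with miR-941 (0.28). NUP93, the hub to which the channel nucleoporins attach, read 6.89 and 7.15 (0.26). NUP155 had 7.58 and 7.71 (0.13). Those 3 rested on 1 detected probe set each. The large ring proteins NUP205 (7.15 and 7.21, a difference of 0.06) and NUP188 (5.87 and 5.83, -0.03) were nearly the same on both arrays, and both NUP205 probe sets were slightly higher.

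Of the 4 channel nucleoporins, 2 were higher and 2 lower on the brightest probe set. NUP62, NUP54 and NUP58 form the trimer that fills the centre of the pore. NUP62 read 7.38 with scrambled oligo and 7.24 with miR-941 (-0.14), and its second detected probe set read 4.85 and 4.37 (-0.48). NUP54 read 7.31 and 7.25 (-0.05). NUP58 read 3.45 and 3.81 (0.36), with 3 of its 4 detected probe sets higher and a median of 0.31 ± 0.23 (SD over 4 probe sets). The brightest probe sets of NUP62 and NUP54 differed by less than the pooled within-gene SD of 0.25, and NUP58 was dimmer than both. Whether the trimer partners differ in direction is therefore not settled.

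NUP98 encodes both a channel nucleoporin and, through self-cleavage of a longer precursor, the Y complex protein NUP96. Its 3 detected probe sets read 4.60 and 4.85 (0.25), 3.88 and 4.42 (0.55), and 3.52 and 3.09 (-0.43) on the control and miR-941 arrays. Their SD of 0.50 was the widest among the members, and no single direction describes the gene. All 3 carry the suffix _s_at, which the array's design gives to probe sets that match several transcripts.

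On the cytoplasmic face, where exported mRNA is released, 4 of 6 genes were higher and the median was 0.08, or 0.00 with the median over detected probe sets. GLE1, an activator of the helicase that strips export proteins from mRNA, read 5.87 with scrambled oligo and 6.19 with miR-941 (0.33), but its other detected probe sets had -0.05 and 0.00, and the median over the 3 was 0.00. RAE1, which binds NUP98 and acts in mRNA export, read 7.66 and 7.96 (0.30), with its second probe set at 0.03. NUP42, a partner of GLE1, had 5.87 and 5.80 (-0.07), and NUP88 had 7.02 and 7.04 (0.02).

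NUP214, to which NUP88 is bound, read 4.23 and 3.90 (-0.33) on its brightest probe set. Its next probe set, at 3.74 and 3.95, was higher by 0.21, and the third read 1.39 on both arrays. The median over the 3 was 0.00, so the brightest probe set alone placed NUP214 among the lower members. RANBP2, the giant filament protein that binds Ran and attaches SUMO, read 6.29 and 6.43 (0.14), and its 4 detected probe sets ran from -0.17 to 0.14. RANBP2 shares sequence with the RGPD genes, and 1 further probe set annotated to RANBP2 and 7 RGPD genes was below the detection level, so its value is uncertain.

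The basket was the only part of the pore with a negative median, -0.22 over 3 genes, a number too small to set it apart, and -0.11 without _x_at and _s_at probe sets, which leaves NUP153 and NUP50. NUP50, which helps release cargo from importins on the nuclear side, was lower on all 4 of its detected probe sets. They read 8.47 with scrambled oligo and 8.13 with miR-941 (-0.34), 8.12 and 7.79 (-0.33), 6.01 and 5.57 (-0.44), and 4.56 and 4.25 (-0.32). The median was -0.34 with an SD of 0.05 over these 4, against a pooled within-gene SD of 0.25 over the members. Among the 975 genes that had 4 or more probe sets detected, 6.77% were lower on every one, a share looked up after the NUP50 values were seen. Of the 4 members with that many (NUP58, RANBP2, NUP50 and NUP210), NUP50 alone was on 1 side of 0.

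TPR, the long coiled-coil protein that builds the basket filaments, was lower on both detected probe sets. They read 7.31 and 7.09 (-0.22) and 7.09 and 6.92 (-0.17). Both are smaller than the spread within a gene, though they lay close to each other. NUP153, which anchors TPR and NUP50 to the pore, read 7.59 and 7.72 (0.13), and its second detected probe set read 1.00 on both arrays. The basket gene that ties the others to the pore was thus not lower.

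The membrane ring held the widest range. AAAS encodes ALADIN, which NDC1 holds at the pore and which is mutated in Allgrove syndrome. Its single probe set read 1.12 with scrambled oligo and 2.59 with miR-941, a difference of 1.47, or 2.76-fold. Among the 5064 detected genes that were not above the 75th percentile of level, 0.513% were 2-fold or more higher. The control value lies just above the detection level, and no second AAAS probe set was there to compare. Without AAAS the differences of the members had an SD of 0.23, and with it 0.33.

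The other membrane genes gave no common direction. NDC1, an anchor of the scaffold, read 8.21 and 8.16 (-0.05) on its brightest probe set and 6.93 and 7.29 (0.37) on the other. NUP210 read 5.83 on both arrays, identical to all deposited decimals, and its other 4 detected probe sets had -0.42, -0.20, 0.59 and 0.26, an SD of 0.39 over the 5. POM121 read 0.92 and 1.35 (0.44) on the only probe set given to it alone. A probe set annotated to POM121 and its near copy POM121C was far brighter, at 8.57 with scrambled oligo and 8.34 with miR-941 (-0.23), the opposite direction. The POM121 value is therefore uncertain. Its control value equals the detection level, so POM121 counts as detected only through the miR-941 array, where it is higher. The median of the membrane ring was 0.22 over the 4 genes, midway between NUP210 and POM121, and 0.00 without AAAS or without POM121.

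Some of these differences are steps that recur across the arrays. Besides the 8 equal ones, 18 of the members' 65 detected probe sets had a difference that at least 10 probe sets of the arrays shared to 6 decimals, against 42.4% of all detected probe sets with 1 symbol. The most shared was that of the second SEH1L probe set (-0.23), found in 830 probe sets. The POM121 difference of 0.44 was shared by 637 probe sets, and that of NUP54 (-0.05), the same as that of 1 GLE1 and 1 NUP58 probe set, by 190. A value on such a step is a coarse reading. The AAAS difference was shared by 2 probe sets, its own included, and that of the brightest NUP50 probe set by none other. A rare difference can still start from a shared level: ABHD13 and AMER1 read 1.12 on both arrays, the AAAS control value. The AAAS difference may therefore be a coarse reading as well.

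Genes that work with the pore were set beside it from lists of transport factors. The share to compare with each list is that of all detected genes, 46.3% higher and 42.4% lower. Of 17 detected import receptors, which carry cargo inward, 11 were higher and 6 lower, with a median of 0.15. KPNA2, an importin alpha, had 0.42 and IPO7 0.39, while KPNA4 had -0.28 and IPO13 -0.10. Of 8 export receptors 6 were higher, with a median of 0.09, led by XPO5 (0.23) and XPOT (0.22), which carry microRNA precursors and tRNA, with XPO7 (-0.17) and XPO1 (-0.01) lowest. No gene of either list passed 1.5-fold, where 2.94% of all detected genes were higher and 2.87% lower by that size. Lists this short would hold few such genes at those shares. KPNA2 was higher on both of its detected probe sets. IPO7 was higher on 3 of 4, with a median of 0.15, and KPNA4 was lower on 2 of 4, with a median of -0.08.

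The Ran system, which gives transport its direction, had a median of 0.05 over 6 detected genes, 4 higher, 1 lower and RCC1 equal. RANBP3 had 0.28 and RANGRF 0.11, while RANBP1 had -0.25. The brightest RANBP3 probe set went against the other 2 detected ones, and its median over the 3 was -0.42. The mRNA export list had a median of 0.00 over 15 detected genes, 7 higher, 6 lower and 2 equal, from NXT2 (0.28) and DDX19A (0.17) to THOC2 (-0.34) and MCM3AP (-0.29). Only 1 of the 3 detected MCM3AP probe sets was lower, and its median was 0.24. THOC2 had 2 probe sets higher and 2 lower (median -0.16), and DDX19A 1 higher and 1 lower (median 0.04). Both detected NXT2 probe sets were higher.

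**Figure D4:**
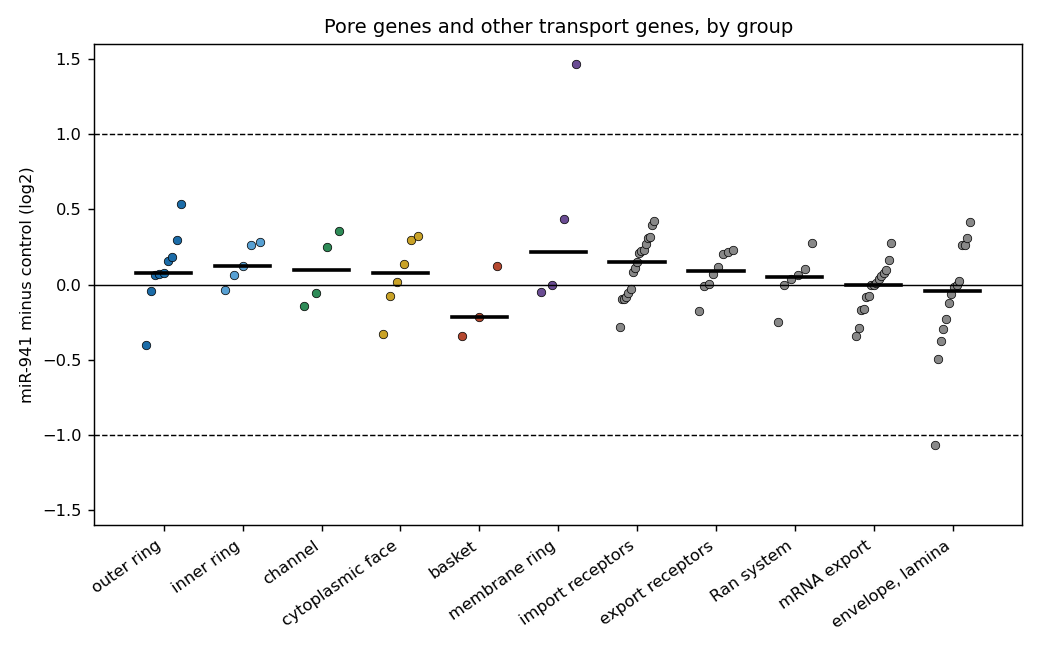
Log2 difference (miR-941 array minus control array) of the brightest probe set of each detected gene, by part of the pore (coloured) and by list of other transport and envelope genes (grey), with the median of each as a bar and dashed lines at 2-fold. Medians run from -0.22 (basket) to 0.22 (membrane ring), and the genes past 2-fold are AAAS and the envelope gene SYNE2.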

How the data were processed

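The deposited log2 values, 1 per probe set and array, are the authors' processed values for Affymetrix Human Genome U133 Plus arrays. The labels and the series' design text name RMA in R. The log2 scale was inferred because values reach 13.7, above the 11.1 that a natural logarithm of a 16-bit reading allows; scale and centring are not given in the sources used here. The submitters' processing notes also name affy and MAS5, and the role of each is not given. Arrays have no read depth, and their number limits the precision.

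Of 54675 probe sets, 41091 had 1 symbol in the platform annotation. Of these, 41037 were named through the Entrez identifier from the RefSeq table of GRCh38.p14, whether or not the symbol changed. Differences, counts and medians were computed in Python 3.11.15 with pandas 2.3.3. A median and a 2-fold share were checked on shuffled differences of these arrays with known shifts added. The choice of the brightest probe set was checked on a small made-up table. No test was possible with 1 array per group. The members and lists were chosen with earlier results of these data known. All members are named, and of each transport and envelope list the 2 highest and 2 lowest detected genes. Parts of the pore follow textbook positions, with AAAS placed beside NDC1. A loess trend (span 0.3, statsmodels 0.14.6) was among the alternatives. The planned description by protein length was not run. Probe sets with several symbols named no gene.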

Additional observations from a re-analysis of the deposited data

How the results depend on the processing

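Each group has 1 array, so no array could be left out, and no paired analysis was possible because the replicate numbers are only names. A value was taken as moved when it changed by at least the members' pooled within-gene SD (0.25), divided for a median by the square root of the number of genes, and a count when it changed by more than 1.5 times. Without _x_at and _s_at probe sets, which leaves 21 members, the median of all members was 0.16, 5 were lower, and the medians were 0.36 for the channel, which is NUP58 alone, 0.21 for the cytoplasmic face over 5 genes and 0.44 for the membrane ring over 3, the value of POM121. Above the 75th percentile of level 0 members were 2-fold higher, since AAAS is left out, and the membrane ring median was -0.0249. With AAAS placed on the cytoplasmic face that median was 0.00. Fewer genes enter each of these. GLE1 and NUP214 are given below. Every other value under these settings stayed within these limits. So did all others with the median over probe sets, no level filter, low values raised to the detection level, or the loess trend removed. The members' median ran from 0.06 to 0.08, the basket from -0.22 to -0.11 and the cytoplasmic face from 0.00 to 0.14. The number higher ran from 15 of 21 (71.4%) without the 2 suffixes to 21 of 31 (67.7%) with the loess trend removed. The lowest share was 54.8%, with the median over probe sets. With the median over probe sets GLE1 and NUP214 moved to 0.00, and without the 2 suffixes NUP214 moved to 0.21. Of single members, SEH1L (-0.02), RANBP2 (-0.0013) and NDC1 (0.16) changed sign with the median over probe sets, and NUP214 (0.21) and RANBP2 (-0.08) without the 2 suffixes.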

Other observations

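Genes of the nuclear envelope that holds the pores had differences with an SD of 0.39 over genes, against 0.33 over the pore genes and 0.30 over all detected genes. Each of the first 2 rests largely on 1 gene: without SYNE2 the envelope had 0.28, and without AAAS the pore had 0.23. Of 14 detected envelope and lamina genes 5 were higher and 8 lower, and the median was -0.04. Among all detected genes 46.3% were higher and 42.4% lower. SYNE2, a giant spectrin-repeat protein that links the nucleus to actin, read 8.22 with scrambled oligo and 7.16 with miR-941, a difference of -1.06, and its 3 detected probe sets were all lower with a median of -0.50. SYNE1, its paralogue, had -0.49 on 1 probe set, at 2.93 and 2.44. EMD, which encodes emerin, had 0.42 and LBR, the lamin B receptor, 0.31, each on 1 probe set.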
